A study of Caenorhabditis elegans with 14 samples.

Results

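Of the 20541 genes in the table of 21 to 26 nt reads, 4 are described here beside sid-1: Y54E5A.8, T05G5.1, R07E5.4 and dhs-9. They were chosen by their values at F6 and F21, as genes with more small RNA reads counted in the silenced F6 animals than in the de-silenced F21 animals. Values of F6 and F21 are therefore given as a description, with no test. The question put to them was whether any follows sid-1 over the 5 groups of libraries. All 4 passed the filter on low counts.

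The libraries came from young adult C. elegans, a nematode worm, synchronized by timed egg laying. The groups were non-array animals of strain HC83 at F6, which are silenced (n = 2), and at F21, which are de-silenced (n = 2), hrde-1;HC125 (strain HC995, n = 2), HC125 (n = 4) and wild type N2 (n = 2). HC125 and hrde-1;HC125 both carry Psid-1::gfp, a gfp gene driven by the sid-1 promoter. The sources used here do not give the hrde-1 allele, the make-up of the array or the transgenes of the HC83 animals. They do not say either whether replicates were separate cultures, so the p-values cover the spread of these samples, which may be technical. Each library was of whole animals, so that fewer cells of a type and less RNA per cell cannot be told apart. The reads assigned to genes numbered 451389 to 6379388 per library, a 14.1-fold range. Replicates correlated on log2 CPM at 0.984 at F6, 0.944 at F21, 0.981 in hrde-1;HC125, 0.905 to 0.976 in HC125 and 0.887 in N2.

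In C. elegans, RNA-dependent RNA polymerases copy targeted transcripts into short antisense RNAs that carry a triphosphate at their 5′ end. In the germline, the nuclear Argonaute HRDE-1 binds such RNAs and is needed for silencing that is inherited over generations. sid-1 encodes a channel that takes double-stranded RNA into cells. A read counted at a gene is a small RNA that matches it and does not measure the messenger RNA. The sources used here give no strand setting, so sense reads may be included. At hrde-1 itself the reads averaged 505.7 ± 48.9 CPM in hrde-1;HC125 and 1012 ± 212 CPM in HC125 (SD, n = 2 and 4), which checks neither the mutation nor its messenger RNA.

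sid-1 is on chromosome V, and none of the 4 genes is. Y54E5A.8 (WBGene00013203) spans chr I:14716598-14719027 on the plus strand of build WBcel235. The other 3 are on chromosome III: R07E5.4 (WBGene00011112) at III:4394796-4396617, plus strand, dhs-9 (WBGene00000973) at III:5364512-5368045, minus strand, and T05G5.1 (WBGene00011498) at III:9739094-9743339, minus strand. R07E5.4 and dhs-9 are 0.968 Mb apart, and dhs-9 and T05G5.1 are 4.371 Mb apart. All 4 are annotated as protein-coding, with 1205, 1502, 852 and 1033 bp of exons in Y54E5A.8, T05G5.1, R07E5.4 and dhs-9. dhs-9 belongs by its name to the short-chain dehydrogenases, enzymes that oxidize or reduce small molecules. The annotation gives no role for the other 3.

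Of the 4, T05G5.1 overlaps no other annotated gene. By gene spans Y54E5A.8 shares 1914 bp with dus-2, a gene on the opposite strand named for tRNA dihydrouridine synthase. Spans include introns, and the overlap of exons was not measured. dhs-9 shares 14 bp with Y32H12A.1 on the opposite strand. The 21U-RNA gene 21ur-15030, of 21 bp, lies within R07E5.4 on the same strand, and reads of it could have been counted at R07E5.4.

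Y54E5A.8 had the most small RNAs in hrde-1;HC125, next at F6, and about the same low level in the other 3 groups. It had 129.3 and 91.0 CPM at F6, and 20.3 and 25.3 CPM at F21. It had 246.5 and 197.1 CPM in hrde-1;HC125, 21.5, 22.1, 26.6 and 21.3 CPM in HC125, and 26.6 and 20.2 CPM in N2. Every hrde-1;HC125 library lay above both F6 libraries, and F21, HC125 and N2 overlapped one another. At F6 the level was 5.11 times that at F21, a log2 fold change of 2.35 ± 0.24 (SE, description only).

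T05G5.1 had the same order at the top but a higher level throughout. It had 332.9 and 345.6 CPM at F6, and 133.3 and 128.3 CPM at F21. It had 507.7 and 406.8 CPM in hrde-1;HC125, 66.7, 77.3, 103.2 and 99.2 CPM in HC125, and 135.3 and 143.7 CPM in N2. Its HC125 libraries were the lowest of the 12, without overlap with any other group. The level at F6 was 2.58 times that at F21 (log2 fold change 1.37 ± 0.19, SE, description only).

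R07E5.4 also had its highest level in hrde-1;HC125, then F6 and then HC125. It had 42.3 and 46.6 CPM at F6, and 14.5 and 9.72 CPM at F21. It had 129.4 and 98.9 CPM in hrde-1;HC125, 17.2, 31.4, 38.3 and 22.4 CPM in HC125, and 11.1 and 11.2 CPM in N2. The HC125 libraries spread over more than the gap between the highest of them and F6, and F21 and N2 overlapped. These values rest on as few as 5 reads, in N2 replicate 1 and F21 replicate 2. The level at F6 was 3.30 times that at F21 (log2 fold change 1.72 ± 0.30, SE, description only).

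dhs-9 was high at F6 and at a low level in the other 4 groups. It had 119.7 and 60.6 CPM at F6, and 12.6 and 15.6 CPM at F21. It had 15.9 and 13.8 CPM in hrde-1;HC125, 15.1, 8.49, 21.1 and 19.7 CPM in HC125, and 11.1 and 13.5 CPM in N2. Both F6 libraries lay above all others, though they were far apart from each other (mean 90.1 ± 41.8 CPM, SD, n = 2), and each neighbouring pair among the other 4 groups overlapped. The level at F6 was 6.76 times that at F21 (log2 fold change 2.76 ± 0.38, SE, description only).

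For sid-1 (WBGene00004795, V:5119970-5126916, plus strand) the order was different from that of all 4. Its level averaged 4446 ± 406 CPM at F6, 765.9 ± 49.6 CPM at F21, 531.5 ± 36.4 CPM in hrde-1;HC125, 2312 ± 216 CPM in HC125 and 811 ± 35.9 CPM in N2 (SD, n = 2, 2, 2, 4 and 2). hrde-1;HC125 thus stood last for sid-1, and first for Y54E5A.8, T05G5.1 and R07E5.4. HC125 stood second for sid-1, as it did for dhs-9, where it overlapped hrde-1;HC125.

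**Figure D1:**
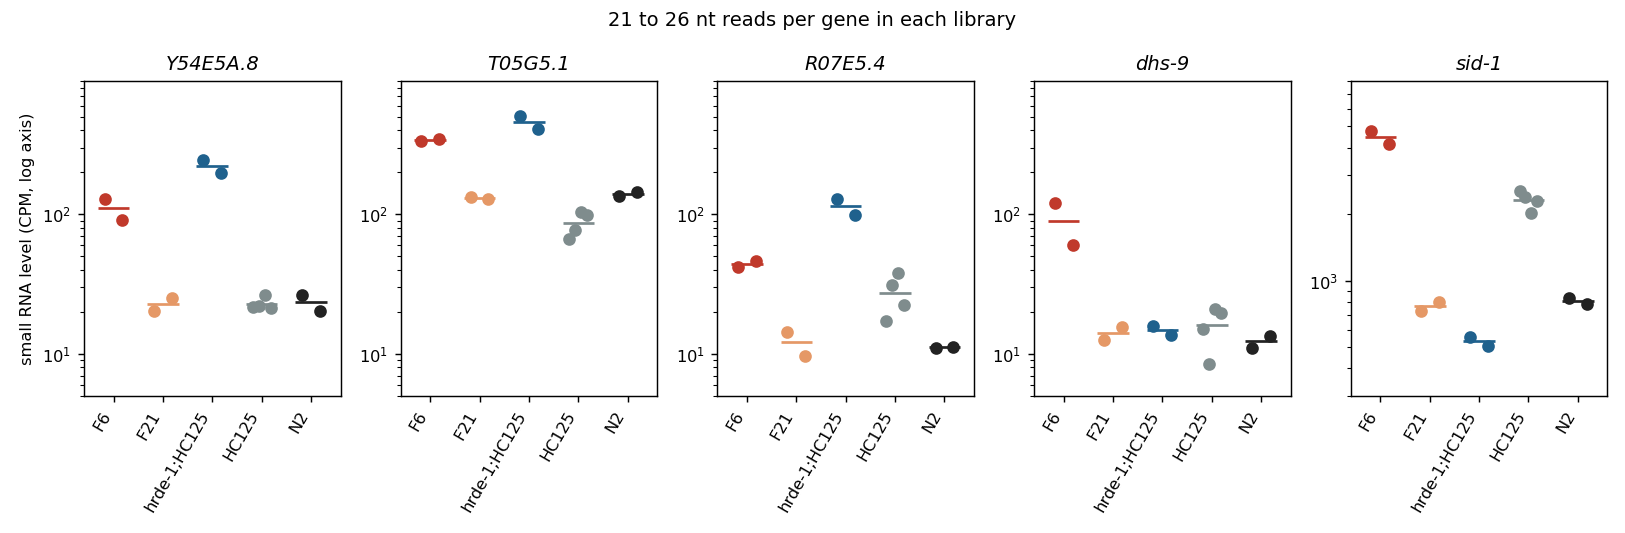
Level of 21 to 26 nt reads (CPM, log axis) in each of the 12 libraries (points) with the group mean (line), for the 4 genes and sid-1, whose axis has another range. The hrde-1;HC125 libraries are the highest for Y54E5A.8, T05G5.1 and R07E5.4 and the lowest for sid-1, and for dhs-9 the F6 libraries alone stand above the rest.

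Per length of exon the 4 genes stayed well below sid-1 at F6. There sid-1 had a level of 1676 ± 153 CPM per kb, T05G5.1 225.9 ± 6.0, Y54E5A.8 91.4 ± 22.5, dhs-9 87.2 ± 40.5 and R07E5.4 52.1 ± 3.6 CPM per kb (SD, n = 2). In hrde-1;HC125, T05G5.1 reached 304.4 ± 47.5 CPM per kb, Y54E5A.8 184 ± 29.0 and R07E5.4 134 ± 25.3, against 200.4 ± 13.7 for sid-1. T05G5.1 was there the one gene of the 4 with both libraries above both of sid-1 per kb, with 338 and 270.9 against 210.1 and 190.6 CPM per kb.

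Against N2, the F6 levels gave log2 fold changes of 2.28 for Y54E5A.8, 1.28 for T05G5.1, 1.99 for R07E5.4, 2.83 for dhs-9 and 2.46 for sid-1. Those of F21 against N2 were -0.07 for Y54E5A.8, -0.09 for T05G5.1, 0.27 for R07E5.4, 0.07 for dhs-9 and -0.08 for sid-1. Since F6 and F21 libraries chose the genes, none of these was tested. As background to the choice, and not as a test of the 4, 9 of 10470 genes (0.086%) passed the edgeR threshold as higher at F6 than F21, and the 4 and sid-1 are among them. Of the other 4, looked up after the values were seen, Y17G7B.8 was higher in hrde-1;HC125 than in HC125 (2.42, edgeR adjusted p = 4.74e-07). C04F5.9, which like sid-1 is on chromosome V, at a distance not measured here, was lower (-1.04, edgeR adjusted p = 0.00219). The mitochondrial genes WBGene00010966 (0.34) and WBGene00010958 (-0.01) were not called.

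To ask whether the small RNAs of each gene differ in the hrde-1 strain, hrde-1;HC125 was set against HC125 (n = 2 and 4). The hrde-1 mutation and any other difference of strain or library preparation cannot be told apart here. The choice of the genes used the difference of F6 and F21, not these libraries, though it was made when earlier results of the whole table were known. Y54E5A.8, T05G5.1 and R07E5.4 rose, and sid-1 fell. Y54E5A.8 rose 9.64-fold to 221.8 ± 34.9 CPM in hrde-1;HC125, against 22.9 ± 2.53 CPM in HC125, a log2 fold change of 3.27 ± 0.18 (SE, edgeR adjusted p = 3.58e-10). T05G5.1 rose 5.12-fold to 457.2 ± 71.3 CPM, against 86.6 ± 17.5 CPM in HC125 (2.36 ± 0.15, edgeR adjusted p = 3.08e-09). R07E5.4 rose 4.04-fold to 114.2 ± 21.6 CPM, against 27.3 ± 9.38 CPM in HC125 (2.02 ± 0.21, edgeR adjusted p = 1.56e-06). For each of the 3, both hrde-1;HC125 libraries lay above all 4 of HC125, as they did for 18.9% of all tested genes.

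dhs-9 did not pass the test, with 14.8 ± 1.54 CPM in hrde-1;HC125 and 16.1 ± 5.69 CPM in HC125. Its log2 fold change was -0.19 ± 0.32 (edgeR adjusted p = 0.765), with a 95% interval of -0.87 to 0.48 that leaves out a change of the size of the other 3. sid-1 had a log2 fold change of -2.12 ± 0.15 (edgeR adjusted p = 5.64e-09), so that Y54E5A.8, T05G5.1 and R07E5.4 were called in the direction opposite to sid-1 in one and the same fit. Of all 10470 tested genes 7.76% were called higher and 9.20% lower in this comparison, which makes a call in either direction common. By size, 1.27% of the tested genes had a larger log2 rise than Y54E5A.8, 2.21% a larger one than T05G5.1 and 2.81% a larger one than R07E5.4. The median log2 fold change of the 4 was 2.19, and of all tested genes -0.03. When libraries were scaled by their totals alone, the median of all genes moved to -0.15 and 645 genes were higher and 1194 lower, in place of 812 and 963, while the same 3 of the 4 genes were called higher.

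hrde-1;HC125 was also set against N2, which has no array (n = 2 and 2). Mutation, array and strain cannot be told apart in this comparison. The N2 libraries are separate from those of HC125, though the hrde-1;HC125 libraries are shared with the comparison above. Y54E5A.8 had a log2 fold change of 3.29 ± 0.26 (edgeR adjusted p = 5.77e-08), T05G5.1 of 1.71 ± 0.20 (edgeR adjusted p = 5.02e-06) and R07E5.4 of 3.35 ± 0.36 (edgeR adjusted p = 2.28e-06). R07E5.4 averaged 114.2 ± 21.6 CPM in hrde-1;HC125 and 11.2 ± 0.0929 CPM in N2, from 5 and 10 reads in N2. dhs-9 again did not pass, at 0.24 ± 0.49 (edgeR adjusted p = 0.762, 95% interval -0.80 to 1.28). sid-1 was lower, at -0.61 ± 0.15 (edgeR adjusted p = 0.0106), a call that ended without hrde-1;HC125 replicate 2 (-0.58, adjusted p = 0.089). Background calls were 8.84% higher and 8.89% lower. Scaled by totals alone, 701 genes were higher and 1060 lower, in place of 926 and 931.

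HC125 was compared with N2 to ask whether the genes have more small RNAs in the strain that carries Psid-1::gfp, as sid-1 does (n = 4 and 2). Array and strain cannot be told apart here. At sid-1 the level was higher by 1.51 ± 0.14 on the log2 scale (edgeR adjusted p = 9.62e-06). None of the 4 genes was called by edgeR or by DESeq2, and 2 had an unadjusted p under 0.05. R07E5.4 leaned the way of sid-1, with 27.3 ± 9.38 CPM in HC125 and 11.2 ± 0.0929 CPM in N2 and no overlap (1.34 ± 0.39, edgeR adjusted p = 0.21). T05G5.1 leaned the other way, with 86.6 ± 17.5 CPM in HC125 and 139.5 ± 5.90 CPM in N2, also without overlap (-0.65 ± 0.18, edgeR adjusted p = 0.182). In this comparison 8.87% of all genes had every HC125 library above both of N2 and 7.87% had every one below. Y54E5A.8 had 22.9 ± 2.53 CPM in HC125 and 23.4 ± 4.54 CPM in N2 (0.03 ± 0.29, edgeR adjusted p = 0.992, 95% interval -0.58 to 0.63). The interval of Y54E5A.8 lies below the estimate for sid-1. dhs-9 had 16.1 ± 5.69 CPM in HC125 and 12.3 ± 1.68 CPM in N2 (0.44 ± 0.47, edgeR adjusted p = 0.761, 95% interval -0.56 to 1.44), with 5 and 12 reads in N2. edgeR called 0.22% of all genes higher and 0.287% lower. R07E5.4 was called with no low-count filter (1.36, edgeR adjusted p = 0.0275) and T05G5.1 with the replicate number as a block (-0.93, edgeR adjusted p = 0.0321). That block leaves replicates 1 and 2 alone to set the HC125 mean, since numbers 3 and 4 occur in no other group.

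**Figure D2:**
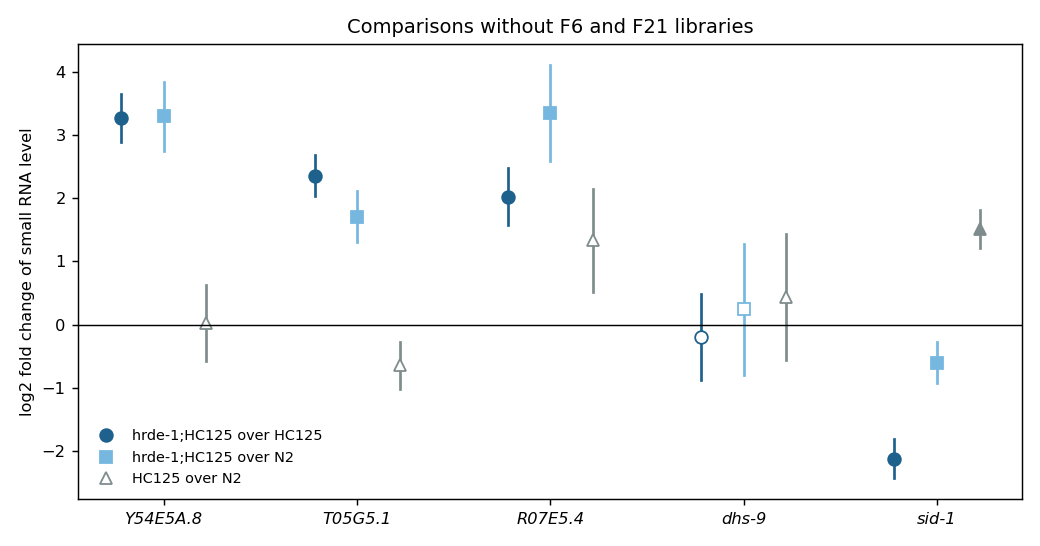
Log2 fold changes with 95% intervals in the 3 comparisons that use no F6 or F21 library, with filled symbols for genes called by edgeR. Y54E5A.8, T05G5.1 and R07E5.4 lie above 0 in both hrde-1;HC125 comparisons and sid-1 below it, the intervals of dhs-9 hold 0 in all 3, and of the 5 genes sid-1 is the one called in HC125 over N2.

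Likeness to sid-1 was described by the Pearson correlation of log2 CPM over the 12 libraries, which share their group means and so give no test. dhs-9 was the most like sid-1, at r = 0.665, with a Spearman rho of 0.434. Of the tested genes, 98.8% had an r at or below its own, but 89.1% a rho at or below its own. The r of R07E5.4 was 0.014, that of Y54E5A.8 -0.099 and that of T05G5.1 -0.201, beside a median of 0.027 over all tested genes. Leaving out 1 library at a time gave 0.526 to 0.799 for dhs-9 and -0.43 to -0.014 for T05G5.1. The r of Y54E5A.8 (-0.329 to 0.142) and of R07E5.4 (-0.079 to 0.295) changed sign. Over the 8 libraries of hrde-1;HC125, HC125 and N2, dhs-9 had r = 0.116, with 58.3% of the genes at or below it, so that its high r needs the libraries by which it was chosen. Over the same 8 libraries T05G5.1 had r = -0.901 (Spearman rho = -0.976), Y54E5A.8 -0.748 (rho = -0.524) and R07E5.4 -0.415 (rho = -0.381). At or below the r of T05G5.1 lay 0.3% of the genes, of Y54E5A.8 3% and of R07E5.4 17.5%. By rho, 16.2% lay at or below Y54E5A.8 and 26% at or below R07E5.4. These r in part restate the rise of the genes and the fall of sid-1 in hrde-1;HC125.

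Without the hrde-1;HC125 libraries, a view chosen after seeing the data, the picture was another. Over those 10 libraries r with sid-1 was 0.892 for R07E5.4, 0.707 for dhs-9, 0.688 for Y54E5A.8 and 0.328 for T05G5.1. R07E5.4 then ranked 2 among 10466 genes by likeness to sid-1. That rank uses the F6 and F21 libraries that chose R07E5.4.

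**Figure D3:**
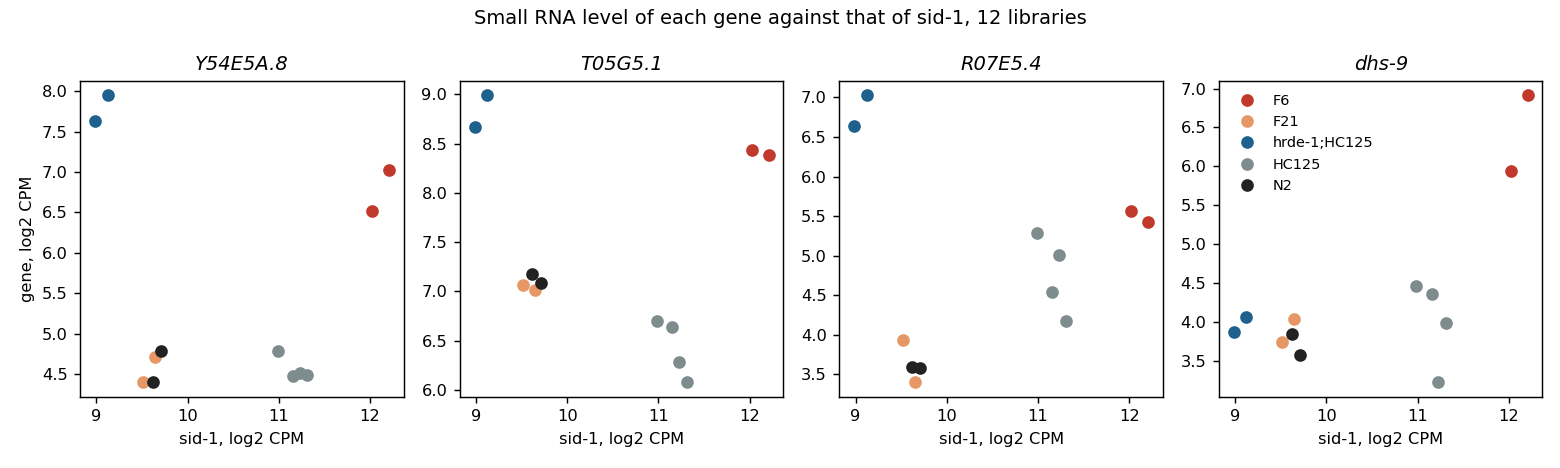
Log2 CPM of each gene (vertical, with its own range) against log2 CPM of sid-1 (horizontal) in the 12 libraries, coloured by group. In the panels of Y54E5A.8, T05G5.1 and R07E5.4 the hrde-1;HC125 libraries lie at the upper left, with the lowest sid-1 levels, and in that of dhs-9 they lie with F21 and N2.

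**Figure D4:**
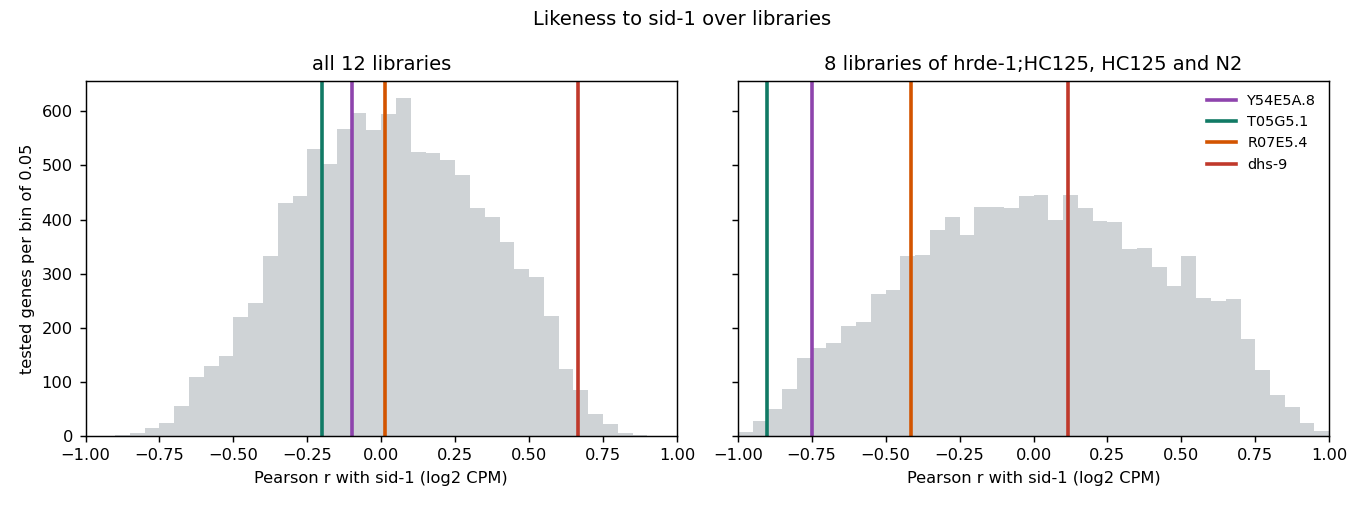
Numbers of tested genes by their Pearson r with sid-1, in bins of 0.05, over all 12 libraries (left) and over the 8 libraries that did not choose the genes (right), with lines for the 4 genes. dhs-9 is at 0.665 on the left and 0.116 on the right, and T05G5.1 is at -0.201 and -0.901.

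Among themselves, Y54E5A.8, T05G5.1 and R07E5.4 varied together and dhs-9 less so. Over the 12 libraries r was 0.937 between Y54E5A.8 and T05G5.1, 0.866 between Y54E5A.8 and R07E5.4, and 0.715 between T05G5.1 and R07E5.4. Over the 8 libraries without F6 and F21 these were 0.943, 0.89 and 0.747. All were chosen as higher at F6 than F21, so r over the 12 libraries is in part built in. Among the 8, both hrde-1;HC125 libraries lay above all others for Y54E5A.8, T05G5.1 and R07E5.4, so r in part restates that rise. The r of other gene pairs was not set beside these. dhs-9 had r of 0.452, 0.478 and 0.282 with Y54E5A.8, T05G5.1 and R07E5.4 over 12 libraries, and 0.086, 0.091 and 0.192 over 8.

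Of all tested genes with a mean of at least 10 CPM, the one most like Y54E5A.8 over the 12 libraries was T05G5.1, and the reverse held too. This ranking and those below use the F6 and F21 libraries that chose the genes, so the nearness of this pair is in part built in. No ranking without those libraries was made. Next for Y54E5A.8 came seld-1 (r = 0.901), named for selenophosphate synthetase, with a mean of 880 CPM in hrde-1;HC125 and 55.4 CPM in HC125, and Y53G8AM.8 (r = 0.900). For T05G5.1 they were polk-1 (r = 0.929), which encodes a DNA polymerase that bypasses damage, and Y17G7B.8 (r = 0.871). Y17G7B.8 had means of 41.6 CPM at F6 and 12.7 CPM at F21, and 78.5 CPM in hrde-1;HC125 and 15 CPM in HC125.

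For R07E5.4 the nearest were WBGene00019136, which the annotation does not hold (r = 0.937), C18D11.3 (r = 0.930) and ida-1 (r = 0.928), a gene of dense-core vesicles in neurons with means of 226 CPM in hrde-1;HC125 and 24.7 CPM in HC125. For dhs-9 they were svop-1 (r = 0.819), C04F5.9 (r = 0.806) and afd-1 (r = 0.785), the gene for afadin, a protein of cell junctions. C04F5.9, which like sid-1 is on chromosome V, was also the gene most like sid-1 itself (r = 0.853). How far C04F5.9 lies from sid-1 was not measured, so it is not shown to be apart from that locus. C04F5.9 had means of 486 CPM at F6, 48.8 CPM at F21, 41.6 CPM in hrde-1;HC125, 87.5 CPM in HC125 and 65.8 CPM in N2. After it came chs-2 (r = 0.845), a chitin synthase gene with 118 CPM at F6 and 8.33 CPM in hrde-1;HC125, and wdr-5.1 (r = 0.833), of complexes that methylate histones.

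The 3 genes on each side of each of the 4, 24 in all, had 17 tested among them and 7 with at most 7 reads in any library. Against HC125, hrde-1;HC125 had 2 of the 17 higher, 0 lower and 15 not called by edgeR, with a median log2 fold change of 0.12, beside 7.76% of all tested genes higher. The 2 were sol-2, of a glutamate receptor complex and a gene beside K05C4.2 in the neighbourhood of Y54E5A.8 (1.41 ± 0.27, adjusted p = 0.00249), and szy-2, next to dhs-9 (1.28 ± 0.34, adjusted p = 0.0121). Against N2, dus-2, K05C4.2, sol-2 and thoc-5 were higher in hrde-1;HC125 (4 of 17, 0 lower, median 0.28, beside 8.84% of all tested genes higher). In HC125 against N2 none of the 17 was called by edgeR and 2 had an unadjusted p under 0.05 (median -0.01).

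The genes that overlap or adjoin the 4 had the following levels. dus-2, which overlaps Y54E5A.8, had means of 96.2 CPM at F6, 85.6 CPM at F21, 105 CPM in hrde-1;HC125, 80.0 CPM in HC125 and 60.3 CPM in N2. Its log2 fold change in hrde-1;HC125 over HC125 was 0.35 ± 0.16 (edgeR adjusted p = 0.18), against 3.27 for Y54E5A.8. hlh-4, 39 bp from T05G5.1, had at most 2 reads in any library. iff-1, the gene on its other side, named for a translation initiation factor, had 105 ± 13.2 CPM in hrde-1;HC125 and 98.0 ± 25.2 CPM in HC125 (edgeR adjusted p = 0.878). R07E5.5, next to R07E5.4, had at most 3 reads and Y32H12A.1, which touches dhs-9, at most 7. The sources used here do not say how reads in overlapping genes were assigned.

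In the family of dhs-9, 30 short-chain dehydrogenase genes were in the table and 16 were tested. In hrde-1;HC125 over HC125 3 were higher, 1 lower and 12 not called (median -0.08). Of all tested genes 7.76% were higher and 9.20% lower, and whether the family differs from them was not tested. dhs-19 rose by 3.24 ± 0.23 on the log2 scale (edgeR adjusted p = 1.04e-08) to 115.3 ± 18.6 CPM in hrde-1;HC125, against 10.96 ± 5.28 CPM in HC125. dhs-3 rose by 2.10 ± 0.41 (edgeR adjusted p = 0.0012). dhs-5 had 76 reads in hrde-1;HC125 and 1 in HC125, a ratio of 56.9 with a 95% counting interval of 9.91 to 2280 (edgeR adjusted p = 0.000176). The one that fell was dhs-8 (-1.97 ± 0.65, edgeR adjusted p = 0.0449). In HC125 over N2 0 of the 16 were called by edgeR and 1 had an unadjusted p under 0.05. In hrde-1;HC125 over N2 the same dhs-19, dhs-3 and dhs-5 were higher and none lower, beside 8.84% of all tested genes higher and 8.89% lower.

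Of 5 tested systemic RNAi genes sid-1 was the one called in each of these comparisons. Of 15 nuclear and heritable RNAi factor genes, nrde-2 was higher in hrde-1;HC125 than in HC125 (0.48 ± 0.13, edgeR adjusted p = 0.0168). Lower were hrde-1 (-1.01 ± 0.17, edgeR adjusted p = 0.000254) and set-25 (-0.46 ± 0.15, edgeR adjusted p = 0.0429), and 12 were not called. Of all tested genes 7.76% were higher and 9.20% lower. The log2 changes of nrde-2, hrde-1 and set-25 were each smaller in size than those of Y54E5A.8, T05G5.1 and R07E5.4.

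Reads at genes of other tissues moved as follows beside the rises in hrde-1;HC125. Of 19 germline genes 8 were higher in hrde-1;HC125 than in HC125, 0 lower and 11 not called (median 0.41, beside 7.76% of all tested genes higher and a median of -0.03), among them mex-5 (0.73), cgh-1 (0.72) and puf-11 (0.76). Their summed reads took 0.581 and 0.647% of the counts in hrde-1;HC125, 0.497 to 0.588% in HC125 and 0.434 and 0.512% in N2. Of 9 muscle genes 1 was higher (unc-54, 1.07 ± 0.26, edgeR adjusted p = 0.016) and 1 lower (lev-11), beside 7.76% of all tested genes higher and 9.20% lower. unc-54 had 1977 ± 1030 CPM in hrde-1;HC125 and 946.2 ± 77.9 CPM in HC125, and muscle genes together took 0.256 and 0.125% of the counts in hrde-1;HC125, 0.0909 to 0.117% in HC125, and 0.00553 and 0.012% in N2. unc-54 was also higher in HC125 than in N2 (4.97 ± 0.42, edgeR adjusted p = 0.00016). It was the 1 muscle gene called there, with 8 not called and a median of -0.22, beside 0.22% of all tested genes higher. The summed shares of muscle genes hold the reads of unc-54 and so do not show a rise of the list as a whole. Of 31 major sperm protein genes and 7 intestine genes none was called by edgeR, with 1 and 0 at an unadjusted p under 0.05. Major sperm protein genes took 0.0681 and 0.0967% of the counts in hrde-1;HC125, 0.0425 to 0.137% in HC125, and 0.0574 and 0.19% in N2. At F6 they took 0.0286 and 0.0304%, and at F21 0.0402 and 0.0618%. The part of these lists in the values of the 4 genes was not tested.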

How the data were processed

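The deposited table holds raw read counts per gene, 1 column for each of 12 libraries, from 21 to 26 nt reads per its name. The tools were Bowtie2 and HTSeq, per the submitters' processing notes. The sources used here give no versions, build, strand setting or treatment of multiple matches. Per the labels' protocols, RNA was treated with a 5′ polyphosphatase. The 2 libraries labelled 5′-dependent are not analysed here.

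Counts were fitted in R 4.3.3 with edgeR 4.0.16 over the 12 libraries in 5 groups (filterByExpr, minimum count 10, minimum total 15, TMM scaling, robust quasi-likelihood F test, two-sided, Benjamini-Hochberg over 10470 genes, called under 0.05). CPM are counts per 1e+06, TMM scaled, and 3 counts came to 0.503 to 6.655 CPM across libraries. SE derive from the F statistic, and log2 CPM has a prior count of 2. CPM per kb divides by annotated exon length (Ensembl 115, WBcel235, 20194 of 20541 IDs matched), which need not be the authors' build. The fit was tested on simulated data. DESeq2 1.42.0 was an alternative.

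Genes named beside the 4 were sid-1, 3 neighbours in the table on each side, the 3 most correlated genes (mean of at least 10 CPM), and up to 3 called members of each list per comparison. dhs-8 and the non-listed called gene Y17G7B.8 were singled out after their values were seen, as were the neighbours whose values are given. The members' rule used the F6 and F21 values alone, but members and lists were chosen with earlier results of these data known, so the comparisons without F6 and F21 are free of the rule and not blind to those results. A search for sequence shared with sid-1 was planned and not run, since no sequences were used here. The counting interval (exact Poisson test) covers counting error only, as amplified reads carry no molecular identifiers.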

Additional observations from a re-analysis of the deposited data

Results flagged for a closer look

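In HC125, Y54E5A.8 had 1 library apart from the other 3: replicate 3 had 26.6 CPM, against 21.3 to 22.1 CPM, a gap of 0.857 of the group's range, above Dixon's critical value for 4 samples. Chance flags about 1 in 20 such groups. The 26.6 CPM rest on 48 reads, and N2 replicate 1 also had 26.6 CPM. Every hrde-1;HC125 library was above it.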

How the results depend on the processing

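Of the 4 genes, Y54E5A.8, T05G5.1 and R07E5.4 were called higher in hrde-1;HC125, against HC125 in all 13 alternatives and against N2 in all 11, leaving out each library among them. dhs-9 was called in none. Against HC125 the log2 values ran from 3.10 to 3.40 for Y54E5A.8, 2.18 to 2.63 for T05G5.1 and 1.81 to 2.25 for R07E5.4.

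In HC125 over N2, Y54E5A.8 (0.03) lay at -0.027 by DESeq2, -0.025 with DESeq2's size factors, -0.024 with the replicate block, -0.035 with only the 2 groups, -0.17 without N2 replicate 2 and HC125 replicates 1 and 2 together, and at -0.20 and -0.06 without N2 replicate 2 and HC125 replicate 3 (-0.20 to 0.16 over single omissions). With the replicate block T05G5.1 was called (-0.93) and dhs-9 turned to -0.25, and to 0.40 in hrde-1;HC125 over HC125. Replicate numbers 3 and 4 occur only in HC125, so under this block its mean rests on replicates 1 and 2 alone. T05G5.1 had 66.7 and 77.3 CPM in those, against 103.2 and 99.2 CPM in replicates 3 and 4. For dhs-9 these were 15.1 and 8.49 CPM, against 21.1 and 19.7 CPM. R07E5.4 was called with no low-count filter (1.36). Beyond the replicates that the block leaves in use, the cause of each was not tested. In hrde-1;HC125 over N2, sid-1 ran from -0.676 to -0.572 over single omissions, and its call ended at -0.58 without hrde-1;HC125 replicate 2.

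Genes called in HC125 over N2 numbered 97 by DESeq2, 256 with no filter, 18 with only the 2 groups, 488 in the joint omission and 30 to 91 over single omissions, against 53. The count was 1065 to 1779 over single omissions against HC125 and 1045 to 1429 against N2, in place of 1775 and 1857, with fewer samples. The lowest, 1065 and 1045, came without hrde-1;HC125 replicate 2, and without its replicate 1 the counts were 1106 and 1226. The replicate block gave 43, 2114 and 2374. Same-numbered samples correlated in their deviations at -0.19 and 0.312, 0.201 and -0.254, and -0.178. The last is in effect 1 value, since with 2 samples in both groups each number must give the same r. The numbers were taken as names only. This check sees same-numbered samples alone, so pairs with other numbers, and batches, were not tested.

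Likeness to sid-1 moved without F6 and F21 (-0.748 Y54E5A.8, -0.901 T05G5.1, 0.116 dhs-9, -0.415 R07E5.4) and without hrde-1;HC125 (0.688, 0.328 and 0.892 for Y54E5A.8, T05G5.1 and R07E5.4). For dhs-9 it was 0.434 by Spearman and 0.805 over group means. Depth limits dhs-9 and R07E5.4 most, with 5 to 12 reads in N2.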
